A study of Mus musculus with 12 samples.

Results

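Nerve cells keep their axons open and supplied with a cytoskeleton of neurofilaments and microtubules. The genes described here are 9 genes of that cytoskeleton in the mouse retina, Nefl, Nefm, Nefh, Ina, Tubb3, Stmn2, Mapt, Map1b and Uchl1, taken by exact match to the gene names of the deposited gene table, where they are 9 of 55487 genes. Each name matched 1 gene, and all 9 passed the filter for testing, a mean above 1 FPKM in at least 1 group, which left 16471 genes. FPKM scales the fragments of a gene to the length of its transcript and to the fragments sequenced in the library, so that levels of genes of different length can be set side by side.

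Neurofilaments are built from a light, a medium and a heavy subunit, with alpha-internexin as a further partner in central neurons, and they fill the calibre of long axons. Microtubules are polymers of alpha and beta tubulin, and proteins such as tau, MAP1B and the stathmins bind them, bundle them or take them apart. In the retina these genes are best known from retinal ganglion cells (RGCs), the only retinal neurons whose axons leave the eye, and they are often listed among RGC markers, although amacrine, horizontal and other retinal neurons express several of them too.

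The study asked what the transcription factor PAX6 and the stress kinase JNK3 do when retinal neurons are killed by excess glutamate receptor signalling, and RNA of whole retinas was sequenced in 12 libraries, 2 for each of 6 groups. WT retinas came from C57BL/6J mice, JNK3 KO retinas from Jnk3-/- mice, and shPax6 retinas from mice given 2 μL of an AAV2.7m8 vector that carries a short hairpin RNA against Pax6 under the U6 promoter together with GFP. Each genotype received an injection into the vitreous of 1 μL of PBS or of 1 μL of 40 mM NMDA, which is 40 nmol of this agonist of the NMDA type of glutamate receptor. For each library, poly(A) RNA was taken from over 3 retinas. The Jnk3 deletion is carried by all cells of the JNK3 KO mice, while the U6 promoter drives the hairpin in whichever cells the vector enters. The labels give no age, and the study's text gives 2 months as the age of the mice that received the vector. It describes the vector's route as intravitreal in some places and subretinal in others. None of the 12 libraries had a vector with a scrambled hairpin, so the vector and the knockdown cannot be told apart in shPax6 retinas. The labels do not say whether the 2 libraries of a group held different animals, and p-values then measure the spread between these samples only.

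The libraries were checked before use. Pax6 had 173 and 177 FPKM in the libraries of WT PBS, 55.4 and 53.8 in WT NMDA, 94.6 and 92.8 in shPax6 PBS, 67.5 and 58.7 in shPax6 NMDA, 187 and 191 in JNK3 KO PBS and 129 and 138 in JNK3 KO NMDA retinas. Its log2 difference between shPax6 PBS and WT PBS retinas was -0.90 (adjusted p = 6.04e-05, limma). Mapk10, which encodes JNK3, had 42.8 and 50.7 FPKM in WT PBS, 8.98 and 6 in WT NMDA, 20.9 and 21.3 in shPax6 PBS, 16.2 and 8.85 in shPax6 NMDA, 9.47 and 8.75 in JNK3 KO PBS and 6.65 and 13.8 in JNK3 KO NMDA libraries. Its difference between JNK3 KO PBS and WT PBS retinas was -2.34 (adjusted p = 0.0215, limma), and it also fell after NMDA in WT retinas (log2 change -2.65, adjusted p = 0.00018). Of 10 RGC markers, 8 fell after NMDA in WT, 7 in shPax6 and 5 in JNK3 KO retinas. Of all genes tested, 33.8%, 11% and 6.1% were lower in these genotypes. The median log2 change of the 10 markers was -1.835 in WT, -2.57 in shPax6 and -1.72 in JNK3 KO retinas. Their sums were 345 to 367 FPKM in WT PBS and 267 to 291 FPKM in WT NMDA libraries. The sums were 111 to 115 and 32.1 to 41.8 FPKM in shPax6, and 346 to 380 and 86.8 to 88.1 FPKM in JNK3 KO libraries. Thy1 and Sncg made up most of each sum. In WT, Thy1 was at 142 and 145 FPKM after PBS and at 136 and 154 after NMDA. Sncg in WT was at 128 and 145 FPKM after PBS and at 112 and 115.5 after NMDA. After NMDA, Thy1 and Sncg were below their PBS levels in both libraries of shPax6 and of JNK3 KO retinas. In shPax6 PBS retinas 4 of the 10 markers were lower than in WT PBS retinas, where 11.2% of all genes were lower. The markers of cornea stayed at or below 0.34 FPKM summed over 3 genes, the oligodendrocyte marker Mog was at 0 in all 12 libraries, and the summed 6 neutrophil markers lay between 194 and 217 FPKM in WT PBS and between 1932 and 1974 FPKM in WT NMDA libraries. The summed 7 microglia markers lay between 37.6 and 41.0 FPKM in WT PBS and between 122 and 135 FPKM in shPax6 PBS libraries. Of the 7, 3 were higher and 0 lower in shPax6 PBS retinas, where 5.36% of all genes were higher. Most of the shPax6 PBS sum came from C1qa (57.1 and 50.8 FPKM) and C1qb (51.7 and 47.25 FPKM). Libraries of Aif1, Cx3cr1 and P2ry12 overlapped between the 2 groups, and those of Csf1r and Tmem119 did not. Of 5 Müller glia markers 4 were lower and 1 higher after NMDA in WT retinas, and of 5 horizontal cell markers 4 were lower and 0 higher. In shPax6 retinas 1 Müller glia marker was lower and 2 higher, and in JNK3 KO retinas 1 was lower and 3 higher. Of the horizontal cell markers 1 was lower in shPax6 and 0 in JNK3 KO retinas, with 0 higher in both. Of 7 amacrine markers, 7 fell after NMDA in WT (median log2 change -1.55), 7 in shPax6 (-1.76) and 2 in JNK3 KO retinas (-0.30). In JNK3 KO retinas 3 of the 6 neutrophil markers fell, with sums of 136 to 151 FPKM after PBS and 11.4 to 12.8 FPKM after NMDA. Their part in the results below was not tested.

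The WT NMDA libraries stood apart from the other 10. Their summed FPKM were 805627 and 820180, against 541210 to 576922 in the others. In WT the median log2 change after NMDA ran from 1.03 for genes with transcripts under 1 kb to -1.17 for genes over 4 kb, while in shPax6 it ran from 0.18 to -0.074 and in JNK3 KO from -0.11 to 0.16. Both libraries of the group share this trend, so neither can be left out for the other, and the WT value of each of the 9 genes is given below also after the trend on spliced length was removed from every library (length corrected). Scaling to TPM, which makes every library sum to the same total, moved the median of all genes in WT after NMDA from -0.094 to -0.66, and the share of higher genes among those called from 43.5% to 21.4%. In shPax6 retinas after NMDA that share went from 63.4% to 44.0% after quantile normalization. In bulk RNA, fewer cells of a type and less RNA per cell cannot be told apart.

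After NMDA, 7 of the 9 genes were lower and 2 higher in WT retinas, 6 were lower and 0 higher in shPax6 retinas, and 7 were lower and 1 higher in JNK3 KO retinas, at a Benjamini-Hochberg adjusted p under 0.05 in limma. Among all genes tested, 33.8% were lower and 26% higher in WT, 11% lower and 19.1% higher in shPax6, and 6.1% lower and 4.33% higher in JNK3 KO retinas. Nefl, Nefm, Ina and Tubb3 fell in all 3 genotypes, and did so under all 11 other settings and with each of the 12 libraries left out. The other 5 genes differed between genotypes in direction or in passing the test. The median log2 change of the 9 genes was -1.12 in WT, -1.14 in shPax6 and -1.03 in JNK3 KO retinas, where the median of all genes tested was -0.094, 0.098 and -0.015.

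**Figure D1:**
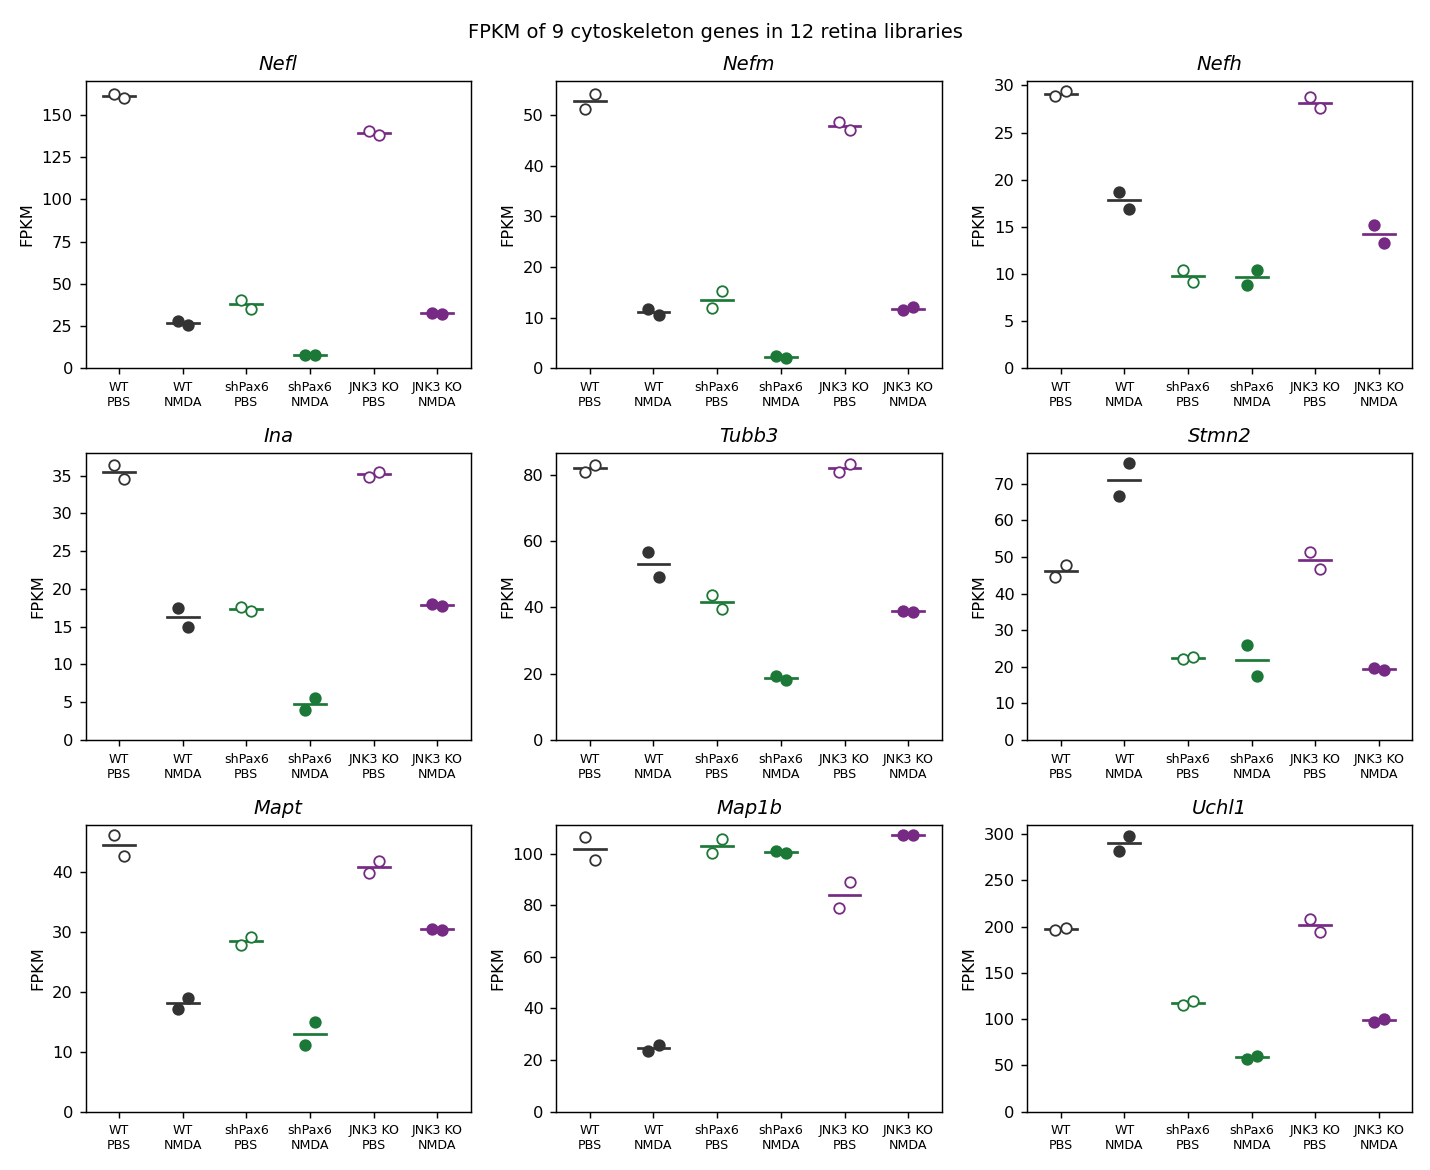
FPKM of each of the 9 genes in each of the 12 libraries, by group, with open circles for PBS, filled circles for NMDA and a line at the mean of the 2 libraries; every axis starts at 0 and differs between panels. Nefl had 162 and 160.25 FPKM in the libraries of WT PBS, and 7.56 and 7.73 FPKM in shPax6 NMDA libraries, whereas Map1b lay near 100 FPKM in all groups but WT NMDA (24.7 on average) and JNK3 KO PBS (83.9).

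Nefl encodes the light neurofilament subunit, the core on which the others assemble. The gene lies at chr14:68083863-68089095 on the plus strand of GRCm38, with 1 transcript of 3380 bases. WT retinas had Nefl at 162 and 160.25 FPKM after PBS and at 27.7 and 25.5 FPKM after NMDA. The Nefl level in shPax6 retinas was 40.5 and 35.3 FPKM after PBS and 7.56 and 7.73 FPKM after NMDA. For JNK3 KO, Nefl values were 141 and 138 FPKM after PBS and 32.6 and 32.3 FPKM after NMDA. The PBS and NMDA libraries did not overlap in any genotype, and the shPax6 NMDA libraries were the lowest of all 12. Nefl fell by 2.60 on the log2 scale in WT (SE 0.077, adjusted p = 3.24e-08, limma), to 16.5% of its mean level after PBS, and by 2.03 length corrected. The log2 change was -2.29 in shPax6 (adjusted p = 2.43e-07) and -2.10 in JNK3 KO retinas (adjusted p = 1.97e-06). Before any NMDA, Nefl was at 23.5% of the WT level in shPax6 PBS retinas (log2 difference -2.09, SE 0.077, adjusted p = 1.21e-06), and the mean in shPax6 NMDA retinas was at 4.74% of that in WT PBS retinas, a 21.1-fold difference.

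Nefm encodes the medium subunit and is the neighbour of Nefl, at chr14:68082590-68124846 on the minus strand. Exons of Nefm and Nefl share 1108 bases on opposite strands, through a second Nefm transcript. The main transcript, of 3334 bases, has no exon in that overlap and held between 98.8% and 100% of Nefm FPKM. Whether reads were counted by strand is not given in the sources used here, so reads of the shared bases cannot be told apart. WT retinas had Nefm at 51.3 and 54.2 FPKM after PBS and at 11.7 and 10.5 FPKM after NMDA. The Nefm level in shPax6 retinas was 11.8 and 15.2 FPKM after PBS and 2.3 and 1.97 FPKM after NMDA. For JNK3 KO, Nefm values were 48.7 and 47.1 FPKM after PBS and 11.4 and 12 FPKM after NMDA. As for Nefl, PBS and NMDA libraries were apart in each genotype. The log2 change was -2.24 in WT (SE 0.13, adjusted p = 9.84e-07, limma; -1.69 length corrected), -2.60 in shPax6 (adjusted p = 2.45e-06) and -2.02 in JNK3 KO retinas (adjusted p = 5.44e-05). With PBS alone, Nefm in shPax6 was at 25.6% of the WT PBS level (log2 difference -1.97, adjusted p = 3.76e-05).

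Nefh encodes the heavy subunit, whose long tail is heavily phosphorylated in axons; it lies at chr11:4938754-4948064 on the minus strand, with 1 transcript of 3994 bases. WT retinas had Nefh at 28.8 and 29.4 FPKM after PBS and at 18.7 and 16.9 FPKM after NMDA. The Nefh level in shPax6 retinas was 10.4 and 9.14 FPKM after PBS and 8.84 and 10.4 FPKM after NMDA. For JNK3 KO, Nefh values were 28.7 and 27.6 FPKM after PBS and 15.2 and 13.3 FPKM after NMDA. The libraries were apart in WT and in JNK3 KO retinas and overlapped in shPax6 retinas, where the level after PBS was already low. Nefh fell by 0.71 in WT (SE 0.12, adjusted p = 0.000692, limma) and by 0.98 in JNK3 KO retinas (adjusted p = 0.00137), and its log2 change in shPax6 was -0.024 (95% interval -0.29 to 0.25). Length corrected, the WT value was 0.082 (adjusted p = 0.614). With PBS alone, Nefh in shPax6 was at 33.6% of the WT PBS level (log2 difference -1.57, adjusted p = 6.14e-05).

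The make-up of the triplet by FPKM differed between PBS and NMDA libraries. In WT PBS libraries Nefl made up 67.0% and 65.7% of the summed FPKM of the 3 genes and Nefh 11.9% and 12.1%. After NMDA the share of Nefh was 32.2% and 31.9% in WT, 47.3% and 51.9% in shPax6 and 25.7% and 23.1% in JNK3 KO libraries. In shPax6 NMDA libraries Nefh was above Nefl, at 117% and 135% of it, while in the other 10 libraries it was between 17.8% and 67.7%. Each of the 6 NMDA libraries had a higher share of Nefh than each of the 6 PBS libraries, which lay between 11.9% and 16.6%. No test of these shares was made.

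**Figure D2:**
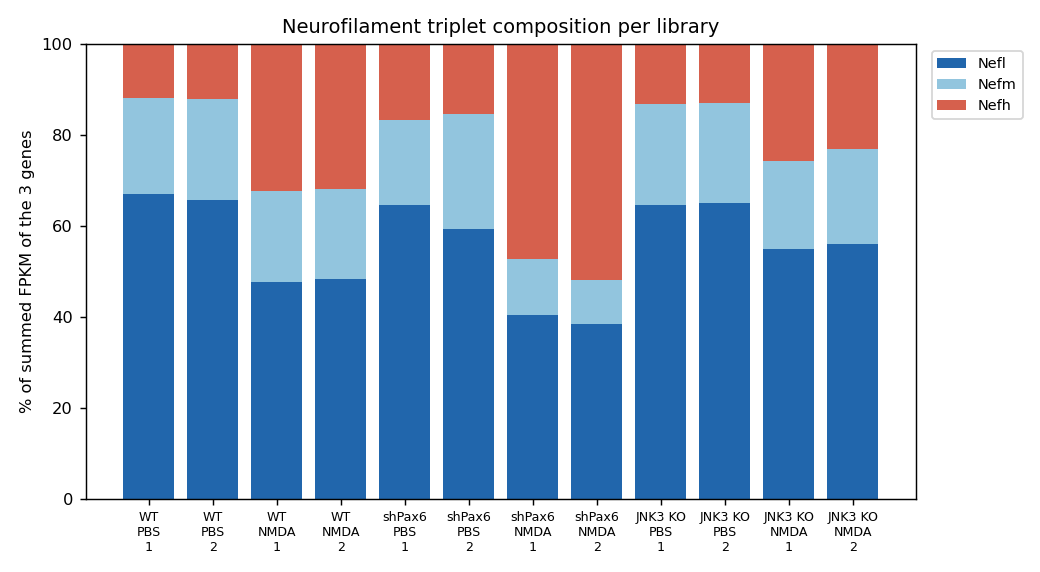
Share of each of Nefl, Nefm and Nefh in the summed FPKM of the 3 genes, in percent, for each library; the bars of a library add up to 100%. The Nefh share was between 11.9% and 16.6% in the 6 PBS libraries and between 23.1% and 51.9% in the 6 NMDA libraries.

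Ina encodes alpha-internexin, and Tubb3 encodes beta-III tubulin, the tubulin used as a marker of neurons. Ina has 1 transcript of 3240 bases at chr19:47014698-47025327 on the plus strand and shares 456 exonic bases with Nt5c2 on the other strand, which was at 14.4 to 26.6 FPKM. Tubb3 lies at chr8:123411424-123422015 on the plus strand, with a main transcript of 1868 bases. Ina was at 36.4 and 34.5 FPKM after PBS and at 17.5 and 15.0 FPKM after NMDA in WT retinas. In shPax6 retinas it was at 17.6 and 17.0 FPKM after PBS and at 4.0 and 5.56 FPKM after NMDA, and in JNK3 KO retinas at 34.9 and 35.5 FPKM after PBS and at 18 and 17.8 FPKM after NMDA. PBS and NMDA libraries of a genotype did not overlap, and the shPax6 PBS libraries of Ina lay at the level of the WT and JNK3 KO libraries after NMDA. The log2 change of Ina was -1.12 in WT (SE 0.14, adjusted p = 0.000118, limma; -0.61 length corrected), -1.85 in shPax6 (adjusted p = 2.27e-05) and -0.97 in JNK3 KO retinas (adjusted p = 0.00378), and its difference in shPax6 PBS from WT PBS retinas was -1.03 (adjusted p = 0.00157).

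WT retinas had Tubb3 at 80.9 and 83.01 FPKM after PBS and at 56.8 and 49.3 FPKM after NMDA. The Tubb3 level in shPax6 retinas was 43.9 and 39.5 FPKM after PBS and 19.2 and 18.2 FPKM after NMDA. For JNK3 KO, Tubb3 values were 80.9 and 83.4 FPKM after PBS and 39.1 and 38.5 FPKM after NMDA. The groups were apart within each genotype, and WT and JNK3 KO PBS libraries overlapped. The log2 change of Tubb3 was -0.63 in WT (SE 0.083, adjusted p = 0.000138, limma; -0.85 length corrected), -1.15 in shPax6 (adjusted p = 1.48e-05) and -1.08 in JNK3 KO retinas (adjusted p = 0.000116). With PBS alone, Tubb3 in shPax6 was at 50.9% of the WT PBS level (log2 difference -0.98, adjusted p = 0.000103).

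The sequences before the start of Ina, Tubb3 and Map1b are shown, of which the first 2 fell in all 3 genotypes and Map1b did not. RefSeq (GRCm38.p6) promoters were matched for 4 of the 9 genes, these and Uchl1. Uchl1 also did not fall in all 3 genotypes, and its stretch is not printed. The letters are the 250 bases before the RefSeq start, read 5′ to 3′ on the gene's strand. They lie at chr19:47014431-47014680 (Ina, plus), chr8:123411303-123411552 (Tubb3, plus) and chr13:99516603-99516852 (Map1b, minus). The gene positions given elsewhere are from GENCODE. The Tubb3 stretch runs past its GENCODE start at 123411424, so part of it lies inside the gene as placed above. Capitals mark matches, on either strand, of a TATA box searched as TATAAA, of a CCAAT box by those letters, and of a GC box searched as GGGCGG. A match on the other strand shows as its reverse complement, and no matches overlap.
Ina: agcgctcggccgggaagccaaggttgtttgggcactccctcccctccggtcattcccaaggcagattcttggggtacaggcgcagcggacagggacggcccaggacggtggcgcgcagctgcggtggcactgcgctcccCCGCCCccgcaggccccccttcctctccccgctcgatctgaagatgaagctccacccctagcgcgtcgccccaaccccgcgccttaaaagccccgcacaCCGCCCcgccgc
Tubb3: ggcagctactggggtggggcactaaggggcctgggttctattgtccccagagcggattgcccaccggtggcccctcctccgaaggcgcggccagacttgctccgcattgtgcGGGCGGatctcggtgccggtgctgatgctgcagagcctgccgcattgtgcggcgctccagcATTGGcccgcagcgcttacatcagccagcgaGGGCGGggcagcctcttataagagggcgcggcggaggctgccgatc
Map1b: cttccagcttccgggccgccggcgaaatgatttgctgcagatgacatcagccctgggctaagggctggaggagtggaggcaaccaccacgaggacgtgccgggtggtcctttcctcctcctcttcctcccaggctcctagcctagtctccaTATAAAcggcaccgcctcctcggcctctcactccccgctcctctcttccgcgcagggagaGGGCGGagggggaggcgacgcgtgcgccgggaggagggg
The GC box letters were found in all 3 stretches shown, 2 times in Ina, 2 in Tubb3 and 1 in Map1b, and in 32.7% of 32851 promoters of the same length. The Uchl1 stretch had 0 matches of the TATA, CCAAT or GC box letters. The CCAAT letters were found in Tubb3 and in 33.8% of all promoters, and the TATA box letters in Map1b and in 12.4%. These are matches of letters and say nothing about factors.

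Stmn2 encodes stathmin-2, which binds tubulin dimers and is known for its part in axon growth and repair, and it lies at chr3:8509360-8561606 on the plus strand. WT retinas had Stmn2 at 44.4 and 47.8 FPKM after PBS and at 66.6 and 75.5 FPKM after NMDA. The Stmn2 level in shPax6 retinas was 22.1 and 22.8 FPKM after PBS and 26.1 and 17.4 FPKM after NMDA. For JNK3 KO, Stmn2 values were 51.4 and 46.7 FPKM after PBS and 19.7 and 19 FPKM after NMDA. The groups were apart and in opposite order in WT and JNK3 KO retinas, and in shPax6 retinas the NMDA libraries lay on either side of the PBS libraries. Stmn2 rose by 0.62 in WT (SE 0.16, adjusted p = 0.00848, limma), fell by 1.34 in JNK3 KO retinas (adjusted p = 0.00133) and changed by -0.078 in shPax6 retinas (95% interval -0.44 to 0.29).

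The higher Stmn2 value after NMDA in WT lay in a short transcript with no coding sequence. Its protein-coding transcript, of 2073 bases, was at 44.3 and 47.8 FPKM after PBS in WT, against 37.8 and 37.4 FPKM after NMDA. A processed transcript of 308 bases was listed at 0 in WT after PBS, both times, against 28.7 and 38.1 FPKM after NMDA, and was at 3.45 and 2.55 FPKM in JNK3 KO PBS and at 0 in the other 6 libraries. With protein-coding transcripts alone, the WT change of Stmn2 was -0.29 (adjusted p = 0.121) and the JNK3 KO change was -1.25 (adjusted p = 0.00119). The WT value was 0.35 length corrected (adjusted p = 0.114) and 0.047 in TPM. The call was lost without WT NMDA replicate 2 (0.53, adjusted p = 0.0642) and without WT PBS replicate 1 (0.57, adjusted p = 0.0591), and in shPax6 retinas the value passed the threshold without shPax6 NMDA replicate 1 (-0.37, adjusted p = 0.0321). The split of reads between overlapping transcripts is an estimate by the RSEM program.

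Uchl1 encodes an abundant neuronal deubiquitinase (PGP9.5) that is used as a marker of axons, and it lies at chr5:66676091-66687234 on the plus strand. WT retinas had Uchl1 at 196 and 199 FPKM after PBS and at 282 and 298 FPKM after NMDA. The Uchl1 level in shPax6 retinas was 116 and 119 FPKM after PBS and 57.3 and 60.2 FPKM after NMDA. For JNK3 KO, Uchl1 values were 208 and 194 FPKM after PBS and 97.0 and 100.4 FPKM after NMDA. The groups were apart in all 3 genotypes, upward in WT and downward in both others. Uchl1 rose by 0.55 in WT (SE 0.055, adjusted p = 2.17e-05, limma), fell by 1.00 in shPax6 (adjusted p = 3.35e-06) and fell by 1.03 in JNK3 KO retinas (adjusted p = 1.63e-05). In shPax6 PBS retinas it was at 59.5% of the WT PBS level (log2 difference -0.75, adjusted p = 5.05e-05).

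The WT rise of Uchl1 held with 75th-percentile scaling (0.47, adjusted p = 7.23e-05) and turned under other settings. The WT value was -0.36 length corrected (adjusted p = 0.000485), -0.25 after quantile normalization, -0.020 in TPM and -0.29 with protein-coding transcripts alone. Its protein-coding transcript of 1177 bases was at 93.0 and 97.3 FPKM after PBS in WT, against 85.8 and 70.1 FPKM after NMDA, and a retained-intron transcript of 980 bases was at 91.7 and 98.4 FPKM against 194 and 226 FPKM. With protein-coding transcripts alone the fall in shPax6 was by 1.64 (adjusted p = 0.000331), and the value in JNK3 KO retinas was -0.62 (adjusted p = 0.0795).

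Mapt encodes tau, which lines axonal microtubules, and it lies at chr11:104231390-104332090 on the plus strand. WT retinas had Mapt at 46.1 and 42.7 FPKM after PBS and at 17.2 and 19.0 FPKM after NMDA. The Mapt level in shPax6 retinas was 27.8 and 29.2 FPKM after PBS and 11.1 and 14.9 FPKM after NMDA. For JNK3 KO, Mapt values were 39.8 and 41.8 FPKM after PBS and 30.5 and 30.3 FPKM after NMDA. The groups were apart in each genotype, with the smallest gap in JNK3 KO retinas. The log2 change was -1.29 in WT (SE 0.13, adjusted p = 2.19e-05, limma) and -1.14 in shPax6 retinas (adjusted p = 0.000203), and in JNK3 KO retinas it was -0.42 and missed the threshold (adjusted p = 0.0692). Length corrected, the WT value was -0.31 and missed it (adjusted p = 0.072), while the JNK3 KO value was -0.54 and passed it (adjusted p = 0.0303). The JNK3 KO fall also passed with protein-coding transcripts alone (adjusted p = 0.0205), with the spread of the compared groups alone (adjusted p = 0.0325) and without shPax6 NMDA replicate 1 or 2 (adjusted p = 0.0111 and 0.0113). The transcript of 5253 bases held between 78.1% and 99.0% of Mapt FPKM. With PBS alone, Mapt in shPax6 was at 64.2% of the WT PBS level (log2 difference -0.64, adjusted p = 0.00953).

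Map1b encodes a large microtubule-associated protein that is abundant in growing axons, and it lies at chr13:99421446-99516540 on the minus strand, with a main transcript of 11808 bases, the longest of the set. WT retinas had Map1b at 106 and 97.4 FPKM after PBS and at 23.6 and 25.8 FPKM after NMDA. The Map1b level in shPax6 retinas was 100.12 and 106 FPKM after PBS and 100.99 and 100.17 FPKM after NMDA. For JNK3 KO, Map1b values were 78.9 and 88.9 FPKM after PBS and 107 and 107 FPKM after NMDA. The shPax6 groups overlapped, the WT groups were far apart, and the JNK3 KO groups were apart in the other direction. Map1b fell by 2.04 in WT (SE 0.076, adjusted p = 7.78e-08, limma), changed by -0.033 in shPax6 (95% interval -0.21 to 0.14) and rose by 0.35 in JNK3 KO retinas (adjusted p = 0.0203). Length corrected, the WT fall was by 0.22 (adjusted p = 0.00729), the shPax6 value was 0.18 (adjusted p = 0.0264) and the JNK3 KO value was -0.012 (adjusted p = 0.945). Leaving out JNK3 KO PBS replicate 1 or either JNK3 KO NMDA replicate ended the JNK3 KO call, with 0.27 and an adjusted p of 0.14 without the first and 0.35 with 0.113 and 0.124 without the others.

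**Figure D3:**
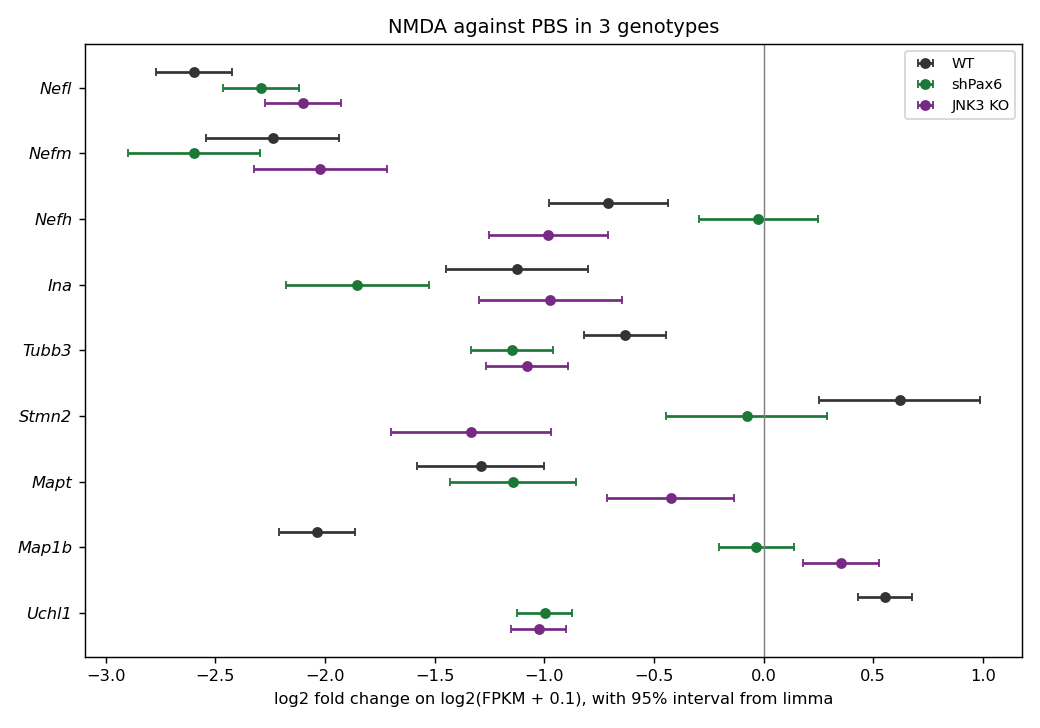
Log2 fold change of each gene from PBS to NMDA on log2(FPKM + 0.1), in WT (black), shPax6 (green) and JNK3 KO (purple) retinas, with the 95% interval from limma. Nefl and Nefm lie between -2.60 and -2.02 in all 3 genotypes, while Uchl1 and Stmn2 are above 0 in WT alone and Map1b is far below 0 in WT alone.

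**Figure D4:**
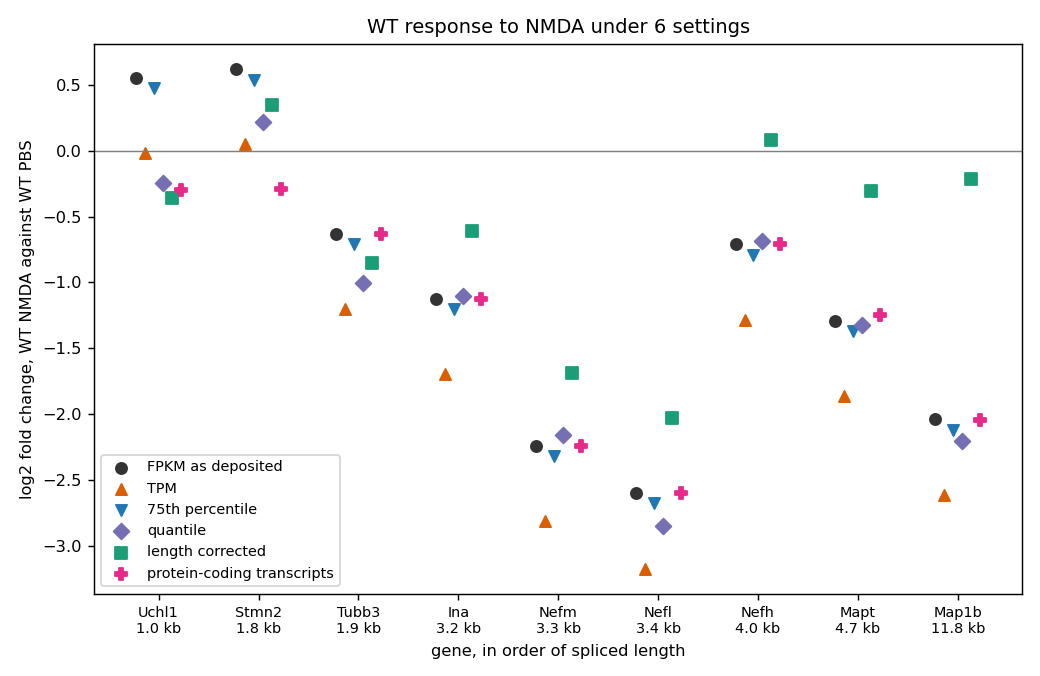
Log2 fold change of each gene from WT PBS to WT NMDA, in order of spliced length in kb, under 6 settings. Nefl and Nefm stay between -3.17 and -1.69 in all 6, whereas Uchl1 runs from 0.55 to -0.36 and Map1b from -2.61 to -0.22.

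The responses to NMDA were compared between genotypes by the interaction in the same model. WT and each other genotype share the WT libraries, so the 2 sets of differences are not independent. Against shPax6, the WT change was lower for 3 genes and higher for 4 of the 9, where 31.4% of all genes were lower and 18.3% higher. Against JNK3 KO it was lower for 3 and higher for 3, where 27.9% were lower and 23.5% higher. Map1b differed, as WT minus the other genotype, by -2.01 against shPax6 (SE 0.11, adjusted p = 2.51e-06) and by -2.39 against JNK3 KO (adjusted p = 5.75e-07). Length corrected, these values were -0.40 (adjusted p = 0.00286) and -0.21, and the second missed the threshold (adjusted p = 0.056). Stmn2 differed by 1.96 between WT and JNK3 KO (adjusted p = 9.88e-05), by 1.61 length corrected (adjusted p = 0.000791) and by 0.96 with protein-coding transcripts alone (adjusted p = 0.00428). Uchl1 differed by 1.55 against shPax6 (adjusted p = 1.86e-06) and by 1.58 against JNK3 KO (adjusted p = 7.97e-07), and by 0.89 and 0.54 length corrected. With protein-coding transcripts alone the Uchl1 values were 1.35 (adjusted p = 0.00366) and 0.33, and the second missed the threshold (adjusted p = 0.361). The differences of the neurofilament subunits moved with the setting. Nefl turned from -0.30 to 0.35 length corrected against shPax6 and from -0.50 to 0.11 against JNK3 KO. Nefm had 0.36 against shPax6 and missed the threshold (adjusted p = 0.146), and passed it length corrected (1.00, adjusted p = 0.00345). Nefh had 0.27 against JNK3 KO (adjusted p = 0.213) and 1.14 length corrected (adjusted p = 0.000954), and its difference of -0.69 from shPax6 was -1.21 in TPM (adjusted p = 0.000309) and 0.14 length corrected (adjusted p = 0.556).

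Among retinas that had received PBS only, 8 of the 9 genes were lower in shPax6 than in WT retinas and 0 were higher, with 11.2% lower and 5.36% higher among all genes tested. The exception was Map1b, at 101.02% of the WT PBS level (log2 difference 0.0155, 95% interval -0.16 to 0.19). The other 8 genes were at 23.5% (Nefl) to 64.2% (Mapt) of the WT PBS level. The 8 calls held under each scaling and length corrected, and with protein-coding transcripts alone Uchl1 missed the threshold (-0.47, adjusted p = 0.147). Without WT PBS replicate 1 or shPax6 PBS replicate 1, Mapt missed it (adjusted p = 0.0799 and 0.0566). The median difference of the 9 genes was -1.03 against -0.064 for all genes, and 4 of 10 RGC markers were lower, with a median of -1.50 over the 10. The RGC markers summed to 111 to 115 FPKM in shPax6 PBS and to 345 to 367 FPKM in WT PBS libraries, while the 7 amacrine markers summed to 209 to 220 and 268 to 275 FPKM, with 3 of 7 lower. Of 7 rod markers 7 were higher in shPax6 PBS retinas (median 0.48), and of 6 neutrophil markers 5 were lower, with sums of 3.83 to 3.89 FPKM against 194 to 217 FPKM. The part of these marker differences was not tested.

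In JNK3 KO PBS retinas no gene of the 9 differed from WT PBS retinas in limma at an adjusted p under 0.05, with 2 genes, Map1b and Nefl, at an unadjusted p under 0.05, where 0.407% of all genes were lower and 1.1% higher. The log2 difference was -0.28 for Map1b (95% interval -0.45 to -0.11, adjusted p = 0.121) and -0.21 for Nefl (95% interval -0.38 to -0.036, adjusted p = 0.234). For the other 7 genes it lay between -0.14 (Nefm) and 0.087 (Stmn2). After quantile normalization Nefl passed the threshold, at -0.40 (adjusted p = 0.0486). The interval reached -0.44 for Nefm and 0.45 for Stmn2, so differences of that size are not excluded by these libraries.

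**Figure D5:**
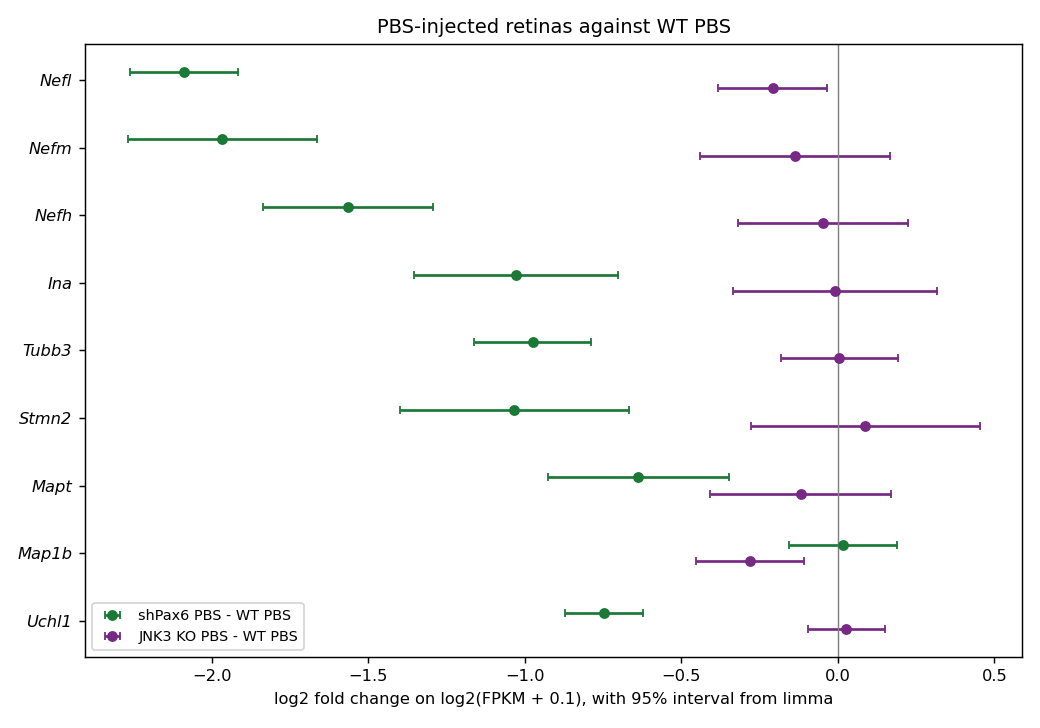
Log2 fold change of each gene in PBS-injected shPax6 (green) and JNK3 KO (purple) retinas against PBS-injected WT retinas on log2(FPKM + 0.1), with the 95% interval from limma. In shPax6 8 genes lie between -2.09 and -0.64 and Map1b lies near 0, and in JNK3 KO all 9 lie between -0.28 and 0.087.

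The level per length placed Uchl1 first in WT PBS retinas, at a mean of 198 FPKM, followed by Nefl at 161, Map1b at 102, Tubb3 at 82.0, Nefm at 52.7, Stmn2 at 46.1, Mapt at 44.4, Ina at 35.4 and Nefh at 29.1 FPKM. Only Stmn2 and Mapt had libraries that overlapped among these neighbours. In WT NMDA retinas Uchl1 stayed first and Nefm came last, and in shPax6 NMDA and JNK3 KO NMDA retinas Map1b was first, at 100.58 and 107 FPKM, with Nefm last, at 2.13 and 11.7 FPKM.

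Across the 12 libraries, the profile of the neurofilament triplet was taken as the mean of the standardized log2 values of Nefl, Nefm and Nefh. Among the genes of the set, Tubb3 (r = 0.97), Ina (0.954) and Mapt (0.883) were close to it, Uchl1 (0.724) and Stmn2 (0.588) less so, and Map1b was at 0.006. Of 9948 other protein-coding genes with a mean above 5 FPKM, the closest were Cplx1, a regulator of synaptic vesicle fusion (r = 0.994), Pde1b, a cyclic nucleotide phosphodiesterase (0.992), Lbh, a transcriptional regulator (0.991), Rgs4, a regulator of G protein signalling (0.98), Zwint (0.979) and Chrna6, a nicotinic receptor subunit (0.975). These are descriptions over 12 libraries of 6 groups, which share their large differences between groups. Cplx1 was at 64.6 and 66.4 FPKM in WT PBS, 21.3 and 21.4 in WT NMDA, 13.3 and 14.3 in shPax6 PBS and 6.21 and 5.6 FPKM in shPax6 NMDA libraries.

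Other genes of the axonal cytoskeleton were read from lists chosen by function. Of 9 other tubulins, 5 rose and 1 fell after NMDA in WT, 4 rose and 3 fell in shPax6, and 2 rose and 4 fell in JNK3 KO retinas. Of all genes tested, 26% were higher and 33.8% lower in WT, 19.1% and 11% in shPax6, and 4.33% and 6.1% in JNK3 KO retinas. The tubulin counts are on the deposited FPKM, without length correction. The split in WT turned under other scalings, with 4 higher and 5 lower in TPM and 1 higher and 6 lower after quantile normalization. Tubb6 rose most in each genotype (log2 change 2.03 in WT, 3.40 in shPax6 and 0.86 in JNK3 KO retinas; adjusted p = 1.01e-05, 2.57e-06 and 0.0166), and Tubb4a, a tubulin of neurons and glia, fell most (-0.50, -1.16 and -0.63; adjusted p = 8.51e-05, 2.57e-06 and 0.000428). Tubb6 is a broadly expressed tubulin, at 7.93 and 8.07 FPKM after PBS in WT, against 32.7 and 33.0 FPKM after NMDA. In shPax6 PBS retinas 7 of the 9 were lower than in WT PBS retinas, most of all Tubb6 (-1.74, adjusted p = 0.000274), with 0 higher. Among all genes tested, 11.2% were lower and 5.36% higher in that comparison.

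Of 18 other microtubule-associated genes, 10 fell and 1 rose in WT, 9 fell and 1 rose in shPax6, and 8 fell and 0 rose in JNK3 KO retinas after NMDA. Of all genes tested, 33.8% were lower and 26% higher in WT, 11% and 19.1% in shPax6, and 6.1% and 4.33% in JNK3 KO retinas. The largest falls were those of Map1a, a relative of Map1b (-2.51 in WT, adjusted p = 3.46e-07), Tppp, a tubulin polymerization protein (-2.14 in shPax6, adjusted p = 3.14e-05), and Tppp3 (-1.55 in JNK3 KO, adjusted p = 1.63e-05). Stmn3, a stathmin like Stmn2, rose in WT (0.41, adjusted p = 0.000324) and Dpysl3 rose in shPax6 retinas (0.23, adjusted p = 0.0139). In TPM and after quantile normalization 0 of the 18 genes were called higher in WT. The WT falls in this list, with that of Map1a, are given without length correction. All genes over 4 kb had a median log2 change of -1.17 in WT after NMDA. In shPax6 PBS retinas 11 of the 18 were lower and 2 higher, with the largest difference for Map1a (-1.76, adjusted p = 4.19e-05) and the largest rise for Dpysl3 (0.48, adjusted p = 0.000552). Among all genes tested, 11.2% were lower and 5.36% higher in that comparison.

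Among 8 other intermediate filament genes, several rose after NMDA. Their values are given on the deposited FPKM, without other scaling or length correction. Of all genes tested, 26% were higher and 33.8% lower in WT after NMDA. The shares were 19.1% and 11% in shPax6, and 4.33% and 6.1% in JNK3 KO retinas. Vim, the vimentin of glia and vessels, was at 339 and 368 FPKM after PBS in WT, against 1154 and 1169 FPKM after NMDA, a rise of 1.72 (adjusted p = 1.47e-07), and rose by 1.45 in shPax6 (adjusted p = 2.24e-06) and by 0.87 in JNK3 KO retinas (adjusted p = 0.000189). Nes, which encodes nestin, rose by 1.35, 1.96 and 1.04 (adjusted p = 1.64e-05, 8.23e-06 and 0.00137). Prph, a neuronal filament protein of peripheral nerves and some RGCs, rose by 1.27 in WT (adjusted p = 1.51e-05) and by 1.98 in shPax6 (adjusted p = 5.30e-06) and had a log2 change of -0.15 in JNK3 KO retinas (adjusted p = 0.494). Gfap, the filament of astrocytes and stressed Müller glia, fell by 0.52 in WT (adjusted p = 0.000284), rose by 1.11 in shPax6 (adjusted p = 1.17e-05) and had a log2 change of -0.25 in JNK3 KO retinas (adjusted p = 0.0766). Of the 8 genes, 4 rose and 3 fell in WT, most of all Synm (-0.84, adjusted p = 0.000881), 5 rose and 1 fell in shPax6, Lmnb1 (-0.44, adjusted p = 0.033), and 3 rose and 0 fell in JNK3 KO retinas. In shPax6 PBS retinas 5 were lower and 1 higher, Lmnb1 (0.56, adjusted p = 0.0199), with differences of -1.23 for Nes (adjusted p = 0.000307), -0.96 for Prph (adjusted p = 0.000796), -0.78 for Gfap (adjusted p = 0.000225) and -0.77 for Vim (adjusted p = 0.000185). Among all genes tested, 11.2% were lower and 5.36% higher in that comparison.

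Of 12 genes of the membrane skeleton and axon initial segment, 11 were lower and 1 higher in WT after NMDA on the deposited FPKM. Of all genes tested, 33.8% were lower and 26% higher in WT, 11% and 19.1% in shPax6, and 6.1% and 4.33% in JNK3 KO retinas. Ank3, which encodes ankyrin-G, fell most in WT (-2.51, adjusted p = 6.22e-08), and the spectrin gene Sptan1 rose (0.76, adjusted p = 3.13e-05). Length corrected, 4 of the 12 were lower and 5 higher. In shPax6 retinas 7 fell and 1 rose, with Nfasc the riser (0.30, adjusted p = 0.0098), and in JNK3 KO retinas 1 fell, Epb41l1 (-0.47, adjusted p = 0.0331). Against WT PBS, 8 of the 12 were lower in shPax6 PBS retinas, Sptbn4 most (-1.13, adjusted p = 0.00659), and 1 was higher, Macf1 (0.20, adjusted p = 0.0443). Among all genes tested, 11.2% were lower and 5.36% higher in that comparison. Of 13 axonal transport motor genes, 10 fell and 1 rose in WT, with the kinesin gene Kif21a lowest (-2.76, adjusted p = 2.34e-06) and the dynein gene Dync1h1 the riser (0.51, adjusted p = 0.00105), and length corrected 7 were lower and 3 higher. In shPax6 retinas 5 fell and 0 rose, Dync1i1 most (-1.82, adjusted p = 0.000539), and in JNK3 KO retinas 4 fell, Klc2 most (-0.49, adjusted p = 0.00916), and 2 rose, Kif5b most (0.46, adjusted p = 0.0235). In the shPax6 PBS comparison 5 motor genes were lower, Kif5a most (-1.24, adjusted p = 7.51e-06), and 1 was higher, Dctn1 (0.26, adjusted p = 0.014). The shares of all genes given above for the membrane skeleton apply to the counts of motor genes too. Between JNK3 KO PBS and WT PBS retinas, 1 gene of these 6 lists passed the test, Kif1a (-0.31, adjusted p = 0.0353). Of 3 other members of the deubiquitinase family of Uchl1, Uchl3 rose in WT (0.85, adjusted p = 0.00126) and in shPax6 retinas (0.51, adjusted p = 0.0373), while Bap1 fell in both (-0.32, adjusted p = 0.0295, and -0.46, adjusted p = 0.0118).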

How the data were processed

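The 12 libraries of mouse retina were made from poly(A) RNA with the TruSeq mRNA kit, after reverse transcription from an oligo-dT primer, and sequenced from both ends. Alignment by the authors used STAR 2.7.1a and GRCm38.p6, and the deposited FPKM of genes and transcripts are RSEM 1.3.3 estimates, and they used edgeR 3.36.0 in R 4.1.0 for transcripts (versions per the submitters' processing notes). The deposited FPKM hold no fragment counts and are rounded to 2 decimals, so the depth behind a value is unknown and precision was judged from the 2 libraries of a group.

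Tests used log2(FPKM + 0.1), which understates changes of low genes, and genes with a mean above 1 FPKM in at least 1 group were kept. A model of 6 group means was fitted over 16471 genes with limma 3.58.1 (eBayes with intensity trend) in R 4.3.3, and p-values were adjusted by Benjamini-Hochberg over all of them. Genes matched GENCODE M21 by Ensembl identifier in 55227 of 55487 cases, which gave positions and spliced lengths. Summed transcripts equalled the gene value (within 0.05 FPKM plus 1%) in 98.7% of values. Named genes were the 9 genes, Pax6, Mapk10, Prph, Vim, Nes and Gfap, the gene that fell and the gene that rose most in each list, and the 6 genes closest to the neurofilament profile. Results for some genes are not reported here. The 9 genes and the lists were chosen with earlier results of these data known. Marker lists of RGCs, amacrine, rod, horizontal, Müller glia, microglia, neutrophil, oligodendrocyte and cornea cells checked the tissue. The fit was tested on simulated data. Alternatives were pseudocounts of 1 and 0.5, no filter, TPM, 75th-percentile and quantile scaling, a length correction, no intensity trend, a spread estimated only from the groups being compared, a replicate block, protein-coding transcripts alone (added after seeing the data) and each library left out. Figures were drawn with matplotlib 3.10.9.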

Additional observations from a re-analysis of the deposited data

Results flagged for a closer look

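The response to NMDA differed between genotypes by the interaction test in limma for the following genes, with the WT change minus the other change on the log2 scale. Such differences were common among all genes tested. Against JNK3 KO 27.9% were lower and 23.5% higher, and against shPax6 31.4% were lower and 18.3% higher. Against JNK3 KO retinas the differences were -2.39 for Map1b, -0.87 for Mapt (adjusted p = 0.00313), -0.50 for Nefl (adjusted p = 0.00403), 1.96 for Stmn2, 0.45 for Tubb3 (adjusted p = 0.00988) and 1.58 for Uchl1. Against shPax6 retinas they were 0.73 for Ina (adjusted p = 0.0153), -2.01 for Map1b, -0.69 for Nefh (adjusted p = 0.00856), -0.30 for Nefl (adjusted p = 0.0423), 0.70 for Stmn2 (adjusted p = 0.0307), 0.52 for Tubb3 (adjusted p = 0.00534) and 1.55 for Uchl1. All of them rest on the WT NMDA libraries, which stood apart in their trend on transcript length. Length corrected, the differences from JNK3 KO were -0.21 for Map1b (adjusted p = 0.056), 0.23 for Mapt (adjusted p = 0.354), 0.11 for Nefl (adjusted p = 0.44), 1.61 for Stmn2, 0.16 for Tubb3 (adjusted p = 0.295) and 0.54 for Uchl1, so Stmn2, Uchl1 and, newly, Nefh passed the threshold. Those from shPax6 were 1.34 for Ina (adjusted p = 0.001), -0.40 for Map1b, 0.14 for Nefh (adjusted p = 0.556), 0.35 for Nefl (adjusted p = 0.0292), 0.62 for Stmn2 (adjusted p = 0.0654), 0.48 for Tubb3 (adjusted p = 0.00858) and 0.89 for Uchl1.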

How the results depend on the processing

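With 2 libraries a group and unknown depth, small differences are hard to see, and leaving out 1 library leaves its group with a lone sample that is assumed to vary like the other groups. Falls of Nefl, Nefm, Ina and Tubb3 after NMDA kept their direction and call under all 11 other settings and with each of 12 libraries left out. The number of the 9 genes called changed by over 1.5 times in 3 settings: 1 against 0 in JNK3 KO PBS against WT PBS after quantile normalization, 3 against 6 for the response of WT minus JNK3 KO length corrected, and 4 against 7 for WT minus shPax6 with the spread of the compared groups alone. Leaving out 1 library gave 4 to 7 calls for WT minus shPax6, with 4 without WT PBS replicate 2. The replicate block gave 9, 6, 8, 8, 0, 7 and 6 calls in the 7 comparisons, as without it. Same-numbered libraries did not deviate together (15 pairs of groups, r from -0.097 to 0.086), so the numbers were not taken as pairs. The causes of the reversals below were not tested.

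After NMDA in WT, the sign turned length corrected for Nefh (0.082) and Uchl1 (-0.358), for Uchl1 also in TPM (-0.02), after quantile normalization (-0.247) and with protein-coding transcripts (-0.295), and for Stmn2 with protein-coding transcripts (-0.292). Map1b turned length corrected in shPax6 (0.184) and JNK3 KO (-0.012). For WT minus shPax6, the length-corrected values that turned were 0.827 (Mapt), 0.139 (Nefh) and 0.347 (Nefl), with 0.003 for Mapt after quantile normalization, -0.143 for Nefm and -0.003 for Tubb3 in TPM, and -0.222 for Stmn2 with protein-coding transcripts. For WT minus JNK3 KO they were 0.398 (Ina), 0.231 (Mapt), 0.115 (Nefl) and 0.375 (Nefm), with -0.318 for Nefh and -0.141 for Tubb3 in TPM. In JNK3 KO PBS against WT PBS they were 0.04 (Ina), 0.103 (Map1b), 0.016 (Mapt), 0.05 (Nefh), -0.062 (Tubb3) and -0.11 (Uchl1), with -0.051 (Tubb3) and -0.028 (Uchl1) at the 75th percentile, -0.061 and -0.038 in TPM, -0.096 and -0.112 after quantile normalization, and -0.339 (Uchl1) and -0.005 (Stmn2) with protein-coding transcripts. Map1b in shPax6 PBS against WT PBS was -0.012 in TPM.

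With 1 library left out, small values that turned ranged from -0.048 to 0.029 (Ina), -0.018 to 0.026 (Tubb3) and -0.023 to 0.076 (Uchl1) in JNK3 KO PBS against WT PBS, from -0.048 to 0.079 for Map1b in shPax6 PBS against WT PBS, from -0.073 to 0.007 (Map1b), -0.143 to 0.096 (Nefh) and -0.37 to 0.214 (Stmn2) after NMDA in shPax6, and from -0.358 to 0.064 for Mapt in WT minus shPax6. In WT minus shPax6, the call of Ina was lost without WT NMDA replicate 1 or WT PBS replicate 2 (adjusted p = 0.0555 and 0.0538), that of Stmn2 without 6 of the 12 libraries and that of Nefl without 10 of the 12.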

Other observations

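The 2 transcripts with higher FPKM in WT NMDA than WT PBS libraries in Stmn2 and Uchl1 were both annotated as non-coding or intron-retaining and both short, at 308 and 980 bases. The Uchl1 transcript held 46.7% and 49.5% of Uchl1 FPKM in WT PBS and 68.7% and 75.7% in WT NMDA libraries. In shPax6 libraries it held 30.5% and 50.7% after PBS and 69.3% and 54.1% after NMDA, and in JNK3 KO libraries 59.2% and 60.4% after PBS and 51.2% and 46.7% after NMDA. The ratio of Nefl to Nefm was 3.17 and 2.96 in WT PBS, 2.37 and 2.43 in WT NMDA, 3.43 and 2.33 in shPax6 PBS, 3.29 and 3.92 in shPax6 NMDA, 2.89 and 2.94 in JNK3 KO PBS and 2.85 and 2.69 in JNK3 KO NMDA libraries. Neither pattern was tested.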
